A study of Homo sapiens with 16 samples.

Results

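Transcripts of 9 corepressor subunits of the class I histone deacetylase (HDAC) complexes were followed in HCT116 colorectal cancer cells: SIN3A, SIN3B, NCOR1, RCOR1, MTA1, MTA2, MTA3, CHD4 and MBD3. They were taken by symbol, not by their values, from a table of 20612 genes, and all 9 were among the 12466 genes that passed the filter on low values. Expression was measured by RNA-seq of polyadenylated RNA in a p53-/- derivative and in p53+/+ cells. Cells of both genotypes were kept for 8 hours with both drugs (the combination), with 2.5 µM Entinostat, with 5 µM Nutlin-3A or with the vehicle DMSO, which made 8 groups of 2 libraries, 16 in all. Entinostat inhibits class I HDACs, and Nutlin-3A blocks the binding of p53 by MDM2. The labels describe the lines as isogenic, do not say whether the p53-/- line is a single clone, and do not restate the doses for the combination.

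Class I HDACs act on chromatin as parts of large complexes, and the subunits described here are the scaffolds and remodelling parts that bring the enzymes together and to their targets. SIN3A and SIN3B are alternative scaffolds of the SIN3 complex, NCOR1 carries HDAC3, and RCOR1 (CoREST) joins HDAC1 or HDAC2 to the histone demethylase KDM1A. In the nucleosome remodelling and deacetylase (NuRD) complex CHD4 is the ATPase, MTA1, MTA2 and MTA3 are related scaffolds that hold HDAC1 or HDAC2, and MBD3 links the deacetylase and remodelling parts.

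The genes with the clearest falls under Entinostat were MTA2, MBD3 and, to a lesser degree, SIN3A. The 250 bases before their RefSeq starts (build GRCh38.p14, all 3 on the minus strand, written 5′ to 3′) are shown because these 3 genes fell with Entinostat. RefSeq has a further such window for SIN3A and for MTA2, with other motif counts, and the window nearest to the gene start in GENCODE v29 is the one shown. Capitals mark, on either strand, the GC box GGGCGG, the CCAAT box and the ETS core CCGGAAG. The windows are chr11:62601866-62602115 for MTA2, chr19:1592866-1593115 for MBD3 and chr15:75455816-75456065 for SIN3A.
MTA2: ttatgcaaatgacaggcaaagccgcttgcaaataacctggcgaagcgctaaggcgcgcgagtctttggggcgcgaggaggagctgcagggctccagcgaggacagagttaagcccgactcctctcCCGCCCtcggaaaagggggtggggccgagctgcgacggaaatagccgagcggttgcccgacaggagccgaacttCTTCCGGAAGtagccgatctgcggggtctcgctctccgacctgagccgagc
MBD3: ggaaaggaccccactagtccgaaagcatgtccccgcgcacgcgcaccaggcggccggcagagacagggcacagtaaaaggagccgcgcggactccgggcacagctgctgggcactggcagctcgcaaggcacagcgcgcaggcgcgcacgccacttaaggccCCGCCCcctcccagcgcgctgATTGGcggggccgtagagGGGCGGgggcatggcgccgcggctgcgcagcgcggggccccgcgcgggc
SIN3A: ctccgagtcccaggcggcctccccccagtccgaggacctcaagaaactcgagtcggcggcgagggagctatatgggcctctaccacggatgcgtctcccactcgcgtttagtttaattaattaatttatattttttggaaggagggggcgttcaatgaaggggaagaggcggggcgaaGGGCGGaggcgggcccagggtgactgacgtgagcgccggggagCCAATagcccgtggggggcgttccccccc
MTA2 held 1 GC box and 2 matches of the ETS core that overlap each other on opposite strands. MBD3 held 2 GC boxes, 1 CCAAT box and 1 match to the consensus of a p53 binding half-site, which is not capitalised. SIN3A held 1 GC box and 1 CCAAT box. Of 35116 RefSeq windows of this length, 42.6% held the GC box, 32% the CCAAT box, 8.52% the ETS core and 5.57% the p53 consensus, so a match describes the letters and not a binding site.

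The libraries held 45902800 to 55507300 alignments. Levels are given in RPKM, reads per kilobase of gene scaled to the mapped reads of the library. The epithelial markers EPCAM (126 to 191 RPKM) and KRT8 (740.1 to 1653 RPKM) were high in every library, while VIL1 and LGR5 did not pass 0.0435 and 0.129 RPKM. Summed over its 8 genes the epithelial list ran from 1839 to 2654 RPKM with Entinostat, against 1365 to 1830 RPKM without it. Most of that sum was KRT8 and KRT18 (430 to 890 RPKM), while KRT20 did not pass 1.02 RPKM and CDX2 7.83 RPKM. The sum over 5 fibroblast markers was 3.75 to 5.99 RPKM with and 2.06 to 2.78 RPKM without Entinostat, almost all of it COL1A1. Over 5 leukocyte markers it was 5.46 to 7.40 against 3.46 to 5.06 RPKM, almost all of it CD68, and over 4 endothelial markers 0.105 to 0.446 against 0.0356 to 0.149 RPKM. The defining markers PTPRC, CD3E and PECAM1 stayed at or below 0.0278 RPKM. These sums ran higher with Entinostat, whereas most of the corepressor genes described below were lower with it. The part of the sums in those results was not tested. A bulk library does not tell fewer cells of a type from less RNA per cell, and these cannot be told apart here. Whether the replicates were separate cultures is not stated in the labels, and the p-values rest on a spread between libraries that may be technical.

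CHD4 was the most abundant of the 9 transcripts in every group except p53+/+ cells with Nutlin-3A, NCOR1 was the least abundant in every group, and on the RPKM scale the members spanned more than an order of magnitude. With DMSO, p53-/- cells had a mean of 77.8 RPKM for CHD4, followed by MTA2 (46.6), MBD3 (39.5), MTA1 (36.5), SIN3A (15.1), RCOR1 (9.60), SIN3B (8.31), MTA3 (5.69) and NCOR1 (3.16). In p53+/+ cells with DMSO the means were 88.5 RPKM for CHD4, 46.0 for MTA2, 35.9 for MTA1, 30.5 for MBD3, 16.6 for SIN3A, 10.2 for SIN3B, 8.83 for RCOR1, 4.91 for MTA3 and 3.60 for NCOR1. No neighbours in either order had overlapping libraries. The order changed with the drugs. With Nutlin-3A in p53+/+ cells MTA2 averaged 67.4 and CHD4 63.1 RPKM, and their libraries overlapped. With the combination in p53+/+ cells SIN3B (10.5 RPKM) stood above SIN3A (8.98 RPKM). With Entinostat in either genotype, and with the combination in p53-/- cells, MTA1 averaged more than MTA2, with overlapping libraries. MBD3 stood above MTA1 with DMSO in p53-/- cells, while MTA1 stood above MBD3 there with each drug and with the combination (30.8 against 20.4 RPKM). NCOR1, the least abundant, had from 110 to 198 alignments per kilobase of gene in a library, taking the deposited alignment totals as the RPKM denominator, and CHD4 from 2386 to 5060.

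**Figure D1:**
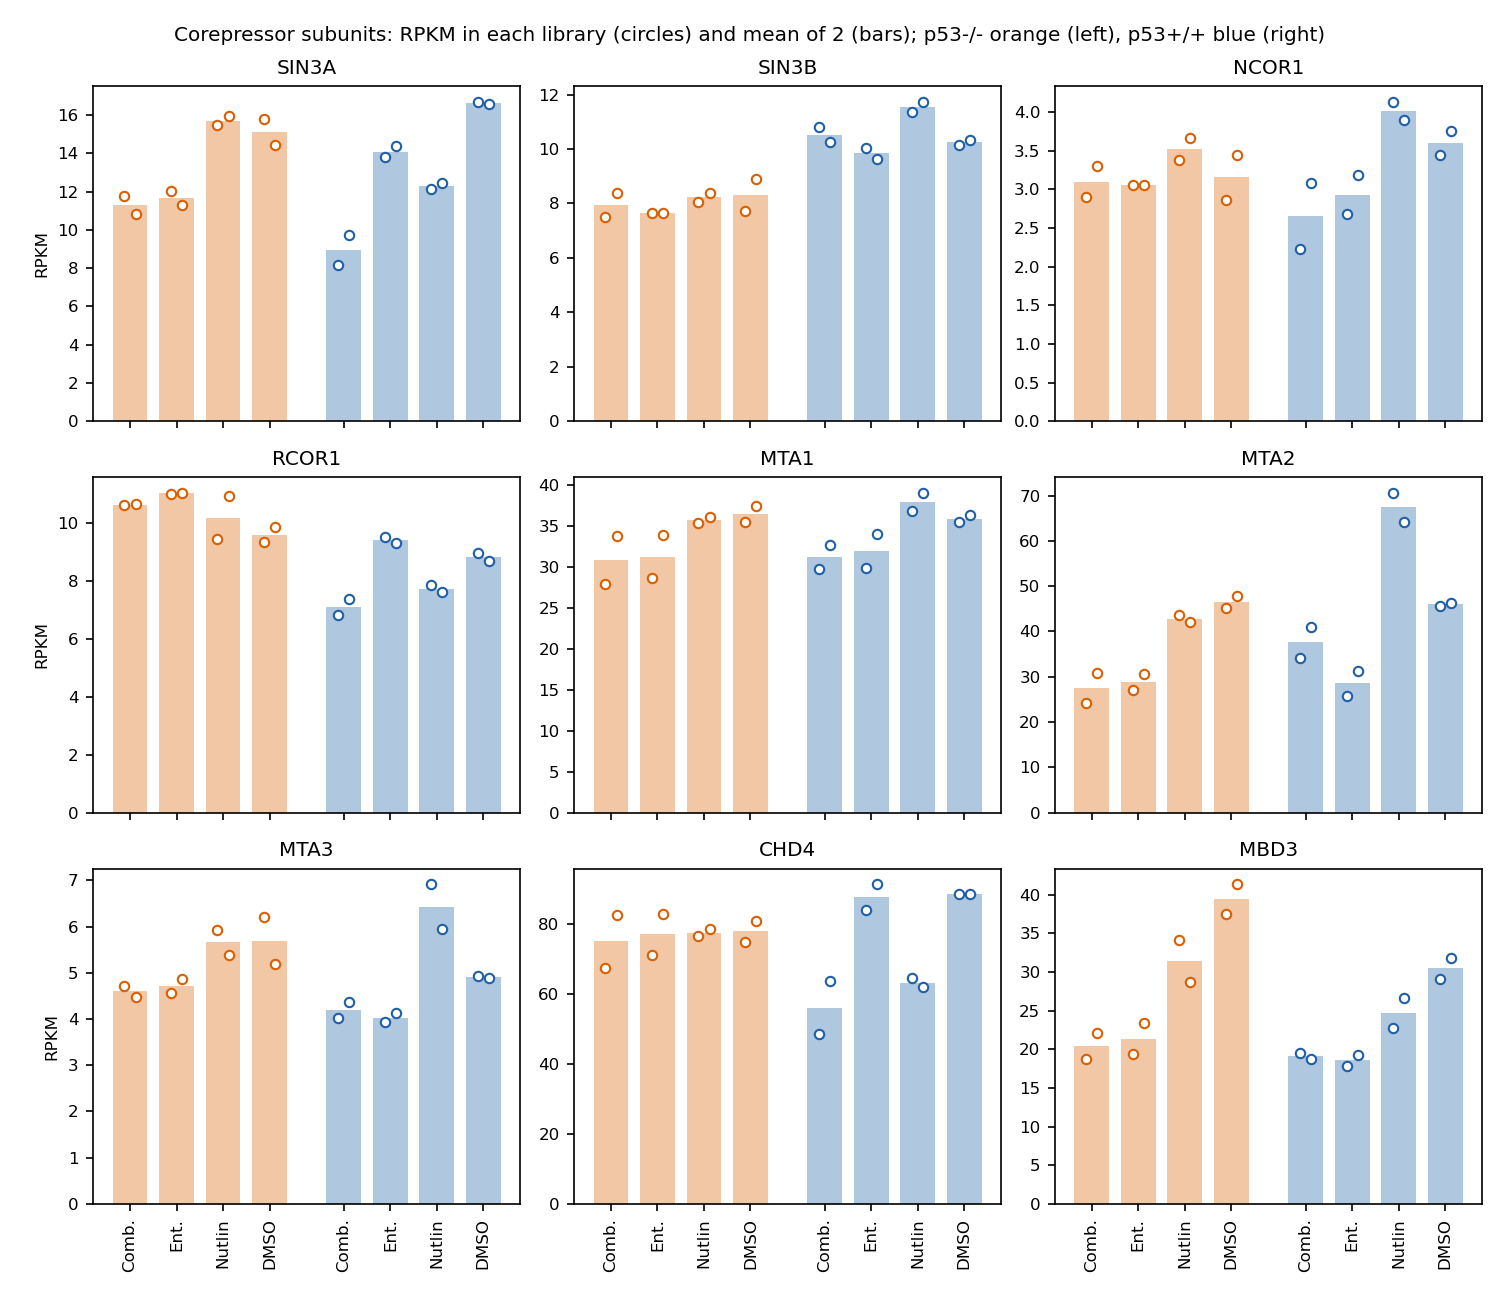
RPKM of the 9 members, 1 panel each, on axes from 0, with libraries as circles and their mean as a bar, p53-/- groups in orange on the left and p53+/+ groups in blue on the right. MTA2 stood highest with Nutlin-3A in p53+/+ cells (67.4 RPKM) and was at 27.6 to 28.9 RPKM with Entinostat or the combination in p53-/- cells and with Entinostat in p53+/+ cells.

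The main question was what class I HDAC inhibition did to the transcripts of these subunits. Averaged over the 4 pairs of groups that differ in Entinostat (with and without Nutlin-3A, in both genotypes), 6 of the 9 members fell and 0 rose by limma's test with Benjamini-Hochberg adjustment over all tested genes at an adjusted p under 0.05. Over all 12466 genes 61.8% were called, 30.1% lower and 31.7% higher, so the members' share of falls was above that of all genes. With the other scalings tried, 7 members (median of ratios) and 5 members (quantile) fell. Over all genes 4414 fell with median of ratios and 3936 with quantile, against 3751 as first fitted. The median log2 change was -0.25 over the members and 0.01 over all genes. MTA2 fell most (log2 change -0.71 ± 0.07 SE, adjusted p = 3.56e-06) and was 1.65-fold lower in mean RPKM. MBD3 fell 1.59-fold (-0.63 ± 0.06, adjusted p = 5.69e-06) and SIN3A 1.30-fold (-0.37 ± 0.05, adjusted p = 3.07e-05). MTA3 (-0.33, adjusted p = 0.00022), NCOR1 (-0.25, adjusted p = 0.00911) and MTA1 (-0.22, adjusted p = 0.00398) fell less. The MTA1 call was lost with quantile normalization (-0.10, adjusted p = 0.162). For the other 3 members the log2 change was -0.08 for SIN3B (95% interval -0.18 to 0.01), -0.07 for CHD4 (-0.21 to 0.07, but 0.03 with quantile normalization) and 0.06 for RCOR1 (-0.04 to 0.15). SIN3B was called only with median of ratios scaling (-0.13, adjusted p = 0.0257). Each of the 6 calls held without any 1 of the 16 libraries, with NCOR1 reaching the highest adjusted p (0.0262).

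**Figure D2:**
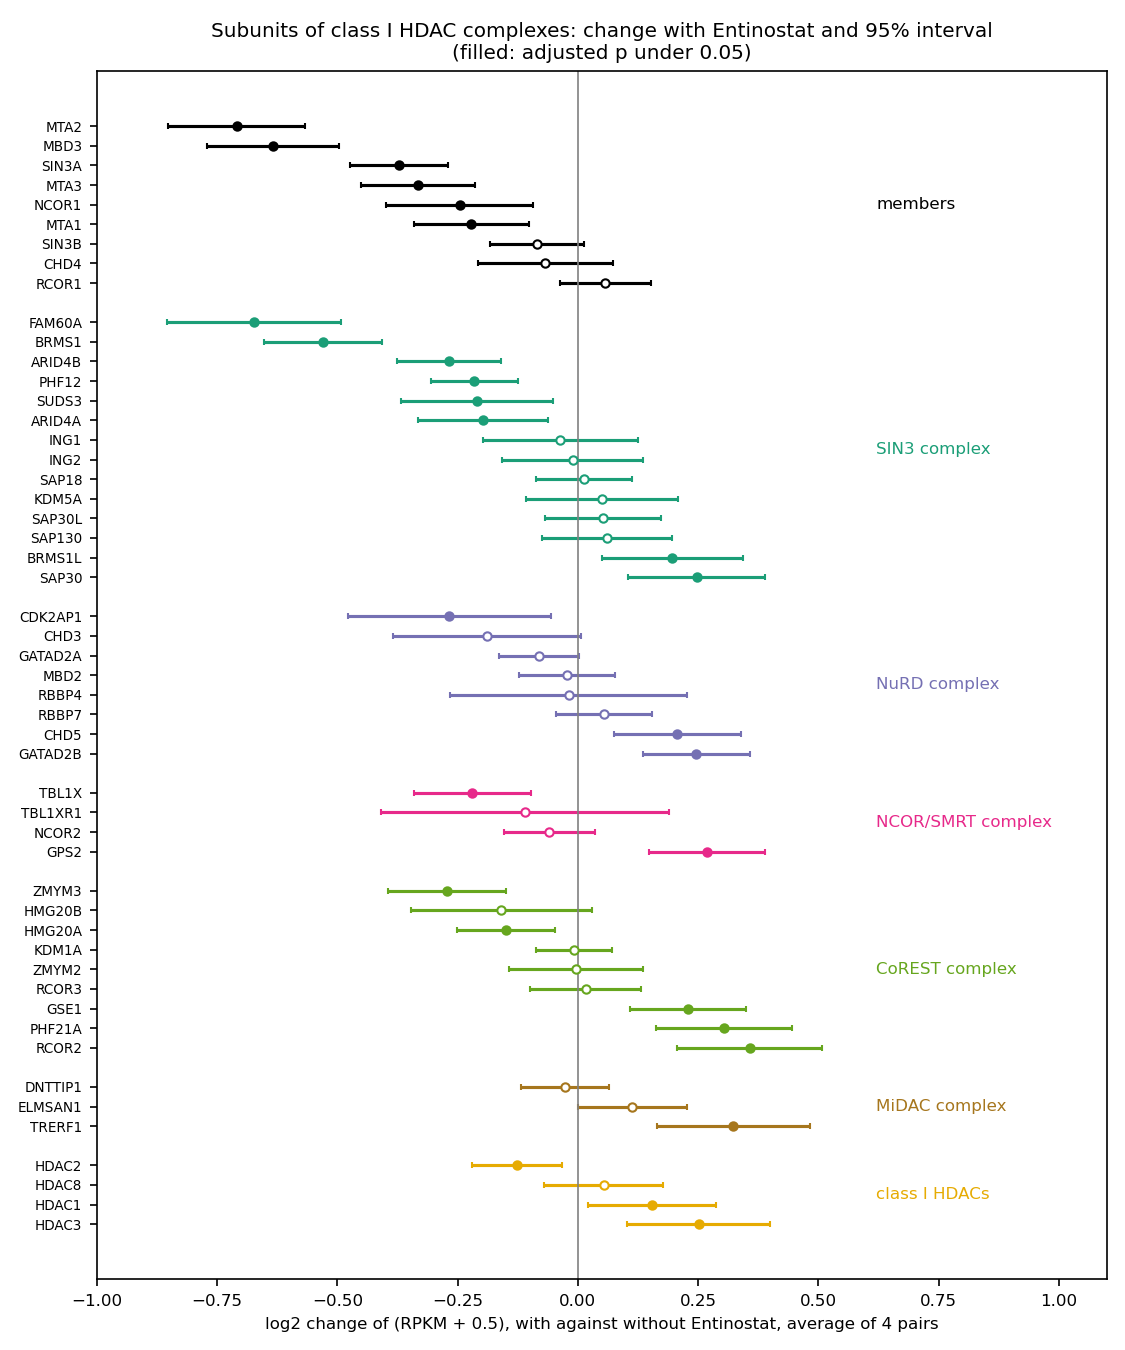
Log2 change of RPKM + 0.5 with against without Entinostat, averaged over 4 pairs of groups, with 95% intervals, for the 9 members (black) and 42 other genes. The other genes are further subunits of the SIN3, NuRD, NCOR/SMRT and CoREST complexes, the MiDAC complex and the class I HDACs. Filled circles have an adjusted p under 0.05. The members run from -0.71 (MTA2) to 0.06 (RCOR1), and the other genes from -0.67 (FAM60A) to 0.36 (RCOR2).

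SIN3A, which holds HDAC1 and HDAC2 and reaches DNA through transcription factors, fell with Nutlin-3A and with the combination in p53+/+ cells, and with Entinostat and with the combination in p53-/- cells. SIN3A was at 11.8 and 10.8 RPKM with the combination in p53-/- cells, 12.02 and 11.28 with Entinostat and 15.46 and 15.97 with Nutlin-3A, against 15.8 and 14.4 with DMSO. In p53+/+ cells it was at 8.19 and 9.76 RPKM with the combination, 13.8 and 14.4 with Entinostat and 12.1 and 12.5 with Nutlin-3A, against 16.7 and 16.6 with DMSO. The 4 groups of p53+/+ cells did not overlap, and in p53-/- cells all 4 libraries with Entinostat lay below all 4 without it. The largest change was that of the combination in p53+/+ cells (log2 change -0.86 ± 0.09 SE, adjusted p = 5.07e-05), a 1.85-fold fall that held without any 1 library. There it fell against Nutlin-3A alone (-0.44, adjusted p = 0.00506, and 0.0557 without combination replicate 1) and against Entinostat alone (-0.63, adjusted p = 0.00103). In p53-/- cells the combination gave -0.40 (adjusted p = 0.00765, and 0.0598 without DMSO replicate 1) and Entinostat -0.36 (adjusted p = 0.0142). The Entinostat call was lost without DMSO replicate 1 (adjusted p = 0.097) or Entinostat replicate 1 (0.062) or 2 (0.0719). Entinostat in p53+/+ cells gave -0.23 for SIN3A, which was called only when replicate numbers were blocked (adjusted p = 0.0468, against 0.0832 unblocked) or with median of ratios scaling (adjusted p = 0.0459).

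SIN3B, the alternative scaffold of the same complex, differed between genotypes rather than between drugs. It ran from 7.504 to 8.90 RPKM over the 8 p53-/- libraries, against 9.64 to 11.7 RPKM over the 8 p53+/+ libraries, so the genotypes did not overlap. Averaged over the 4 treatments SIN3B was 1.31-fold lower in p53-/- cells (log2 change -0.37 ± 0.04 SE, adjusted p = 3.62e-05). With Nutlin-3A in p53+/+ cells its log2 change was 0.16 (95% interval -0.03 to 0.36), and no drug comparison called it as first fitted. Within each genotype the mean ratio of SIN3A to SIN3B in a library therefore ranked the groups as SIN3A did. Between genotypes the ratio also reflected SIN3B. In p53-/- cells the ratio averaged 1.43 ± 0.196 (SD, n = 2) with the combination, 1.52 ± 0.0714 with Entinostat and 1.91 ± 0.00721 with Nutlin-3A, against 1.83 ± 0.297 with DMSO. In p53+/+ cells it averaged 0.855 ± 0.138 with the combination, 1.43 ± 0.0849 with Entinostat and 1.06 ± 0.00355 with Nutlin-3A, against 1.62 ± 0.0281 with DMSO. Only the combination in p53+/+ cells had both libraries below 1 (0.758 and 0.952).

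**Figure D3:**
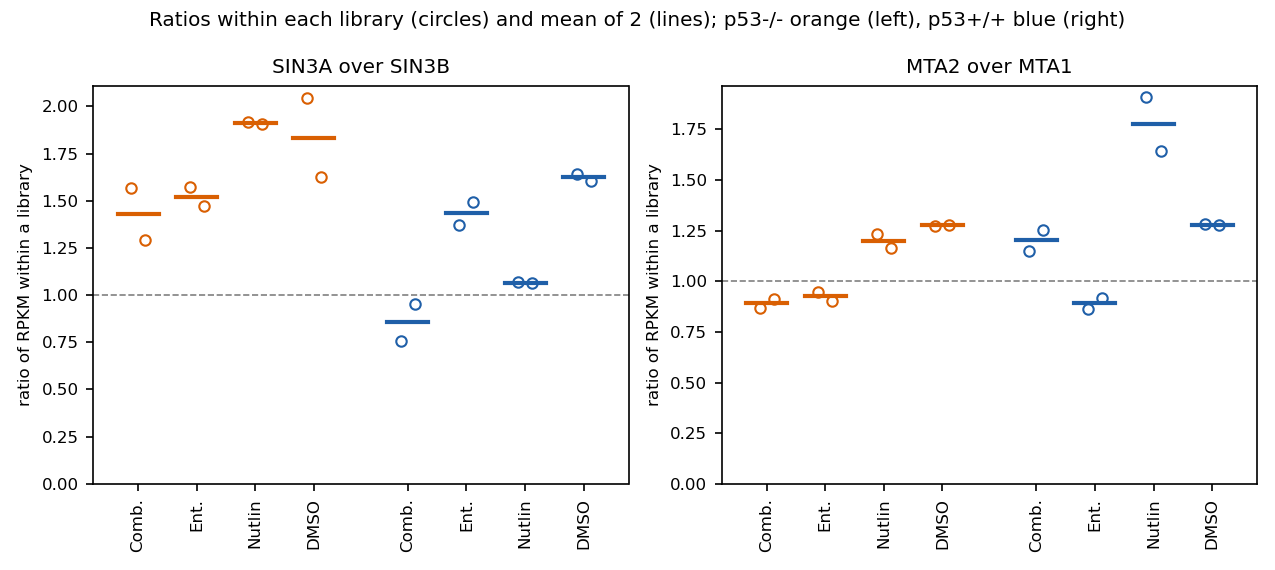
Ratio of SIN3A to SIN3B (left) and of MTA2 to MTA1 (right) in RPKM within each library, with circles for libraries, lines for the mean of 2 and a dashed line at 1. In p53+/+ cells the SIN3A to SIN3B ratio averaged 0.855 with the combination against 1.62 with DMSO, and the MTA2 to MTA1 ratio 1.78 with Nutlin-3A against 1.28 with DMSO.

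NCOR1, a corepressor of nuclear receptors that binds and activates HDAC3, fell in p53+/+ cells with the combination and was the least abundant member. Across the p53-/- groups it ran from 2.87 to 3.66 RPKM, and no drug comparison there called it. In p53+/+ cells NCOR1 was at 2.23 and 3.09 RPKM with the combination, 2.68 and 3.19 with Entinostat and 4.13 and 3.90 with Nutlin-3A, against 3.44 and 3.76 with DMSO. Both combination libraries lay below both DMSO libraries, and the log2 change was -0.39 ± 0.14 SE (adjusted p = 0.0366). That call was lost without DMSO replicate 1 (adjusted p = 0.069) or 2 (0.169), without combination replicate 1 (0.333) and with no filter on low values (0.0584). Against Nutlin-3A alone the combination gave -0.53 (adjusted p = 0.0138), which was lost without Nutlin-3A replicate 1 (0.0818) or combination replicate 1 (0.144). NCOR1 shares exonic bases with PIGL on the opposite strand (5.21 to 8.58 RPKM), and the strand setting of the counting was not stated, so its values are uncertain. The annotation (GENCODE v29) also places genes that are not in the table over exons of SIN3A, NCOR1, MTA1, CHD4 and MBD3.

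RCOR1, the CoREST scaffold that joins KDM1A to the deacetylase, was the only member whose point estimate was higher with Entinostat over the 4 pairs, with an interval that includes 0. RCOR1 was at 10.6 and 10.7 RPKM with the combination in p53-/- cells, 11.03 and 11.04 with Entinostat and 9.45 and 10.9 with Nutlin-3A, against 9.35 and 9.86 with DMSO. Its levels in p53+/+ cells were 6.84 and 7.39 RPKM with the combination, 9.53 and 9.30 with Entinostat and 7.87 and 7.62 with Nutlin-3A, against 8.99 and 8.68 with DMSO. In p53+/+ cells the 4 groups did not overlap and the combination was lowest. Averaged over the 4 treatments RCOR1 was 1.25-fold higher in p53-/- cells (log2 change 0.31 ± 0.04 SE, adjusted p = 1e-04). The combination in p53+/+ cells gave -0.29 (adjusted p = 0.0143), a call lost without DMSO replicate 1 (adjusted p = 0.0765) or combination replicate 1 (0.0956). Against Entinostat alone RCOR1 fell there by 0.38 on the log2 scale (adjusted p = 0.0121), a call lost without Entinostat replicate 1 (0.0723) or 2 (0.0643) or combination replicate 1 (0.0997).

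CHD4, the ATPase that moves nucleosomes in NuRD, fell with Nutlin-3A in p53+/+ cells and was near its DMSO level with Entinostat. CHD4 was at 67.4 and 82.5 RPKM with the combination in p53-/- cells, 71.1 and 82.8 with Entinostat and 76.3 and 78.3 with Nutlin-3A, against 74.7 and 80.9 with DMSO. Its levels in p53+/+ cells were 48.5 and 63.5 RPKM with the combination, 83.9 and 91.2 with Entinostat and 64.4 and 61.8 with Nutlin-3A, against 88.5 and 88.5 with DMSO. The 4 p53-/- groups overlapped, while in p53+/+ cells the 4 libraries with Nutlin-3A lay below the 4 without it. CHD4 was 1.40-fold lower with Nutlin-3A in p53+/+ cells (log2 change -0.48 ± 0.13 SE, adjusted p = 0.0223) and 1.58-fold lower with the combination (-0.67 ± 0.13, adjusted p = 0.0014). The combination call held without any 1 library. The Nutlin-3A call was lost without any 1 of the 4 libraries compared, although the log2 change then stayed between -0.51 and -0.45. It was also lost with quantile normalization (adjusted p = 0.0647). Entinostat alone gave -0.02 in p53-/- cells (95% interval -0.30 to 0.27) and -0.02 in p53+/+ cells (-0.30 to 0.27), with no stable sign: quantile normalization gave 0.10 and 0.08. Against Entinostat alone the combination lowered CHD4 in p53+/+ cells by 0.65 on the log2 scale (adjusted p = 0.0057), a call lost without combination replicate 1 (0.0638) or Entinostat replicate 2 (0.0583).

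MTA2, a scaffold that binds HDAC1 or HDAC2 in NuRD, moved in opposite directions with the 2 drugs in p53+/+ cells. MTA2 was at 24.3 and 30.9 RPKM with the combination in p53-/- cells, 27.1 and 30.7 with Entinostat and 43.6 and 42.0 with Nutlin-3A, against 45.3 and 47.9 with DMSO. Its levels in p53+/+ cells were 34.2 and 41.1 RPKM with the combination, 25.8 and 31.3 with Entinostat and 70.5 and 64.3 with Nutlin-3A, against 45.6 and 46.4 with DMSO. In p53+/+ cells the 4 groups did not overlap, and in p53-/- cells every library with Entinostat lay below every library without it. Nutlin-3A raised MTA2 1.47-fold in p53+/+ cells (log2 change 0.55 ± 0.13 SE, adjusted p = 0.0127). That call was lost without DMSO replicate 1 (adjusted p = 0.0722) or 2 (0.0681) or Nutlin-3A replicate 1 (0.103). Entinostat gave -0.68 in p53-/- cells (adjusted p = 0.00368) and -0.68 in p53+/+ cells (adjusted p = 0.00375, and 0.0554 without Entinostat replicate 1). The combination lowered MTA2 by 0.75 on the log2 scale in p53-/- cells (adjusted p = 0.00194). In p53+/+ cells the combination gave -0.29 against DMSO, called only when replicate numbers were blocked (adjusted p = 0.0261, against 0.0811 unblocked) or without combination replicate 2 (0.0357). With quantile normalization that change was -0.06 (adjusted p = 0.716). In p53+/+ cells MTA2 fell with the combination against Nutlin-3A alone (-0.84 ± 0.13 SE, adjusted p = 0.00108). It stood 0.39 above Entinostat alone (adjusted p = 0.0635, and 0.0124 with the block), and 0.50 above it with quantile normalization (adjusted p = 0.022).

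MTA1 and MTA3, the other MTA scaffolds, varied less. MTA1 ran from 27.9 to 33.9 RPKM in the 4 p53-/- libraries with Entinostat, against 35.3 to 37.5 RPKM in the 4 without it. In p53+/+ cells MTA1 ran from 29.7 to 34.0 RPKM with Entinostat, against 35.5 to 39.0 RPKM without it. In neither genotype did these sets overlap, although no single drug against DMSO comparison called MTA1 without the replicate block. With the block MTA1 was called for the combination in p53-/- cells (-0.25, adjusted p = 0.0158, against 0.108 unblocked). Unblocked, the same comparison was called without combination replicate 2 (0.0374). The block also gave calls for Entinostat in p53-/- cells (-0.22, adjusted p = 0.0264, against 0.149 unblocked), for the combination against Nutlin-3A alone in p53+/+ cells (-0.28, adjusted p = 0.0073, against 0.0667) and for the combination in p53+/+ cells (-0.20, adjusted p = 0.0312, against 0.147). The last of these had a log2 change of 0.02 with quantile normalization. The ratio of MTA2 to MTA1 within a library averaged 0.892 ± 0.0311 (SD, n = 2) with the combination, 0.925 ± 0.0290 with Entinostat and 1.20 ± 0.0496 with Nutlin-3A in p53-/- cells, against 1.28 ± 0.00101 with DMSO. In p53+/+ cells it averaged 1.20 ± 0.0749 with the combination, 0.891 ± 0.0405 with Entinostat and 1.78 ± 0.188 with Nutlin-3A, against 1.28 ± 0.00523 with DMSO. MTA1 shares exonic bases with TEX22, whose mean was 0.0415 RPKM.

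MTA3 was at 6.91 and 5.95 RPKM with Nutlin-3A in p53+/+ cells, against 4.93 and 4.89 RPKM with DMSO. The groups did not overlap, and MTA3 rose there 1.31-fold (log2 change 0.35 ± 0.11 SE, adjusted p = 0.0422). The call was lost without DMSO replicate 1 (adjusted p = 0.138) or 2 (0.174), without Nutlin-3A replicate 1 (0.278), with no filter on low values (0.0521) and with quantile normalization (0.0689). Entinostat alone gave -0.26 in p53+/+ cells, called only with the block (adjusted p = 0.0483, against 0.098) or with quantile normalization (0.0352). With the combination MTA3 was at 4.02 and 4.37 RPKM in p53+/+ cells, below both Nutlin-3A libraries (-0.56 ± 0.11, adjusted p = 0.00309). In p53-/- cells MTA3 ran from 4.49 to 4.87 RPKM with Entinostat, against 5.19 to 6.20 RPKM without it, and the combination against DMSO was called only with the block (-0.27, adjusted p = 0.0333, against 0.0722) or with median of ratios scaling (0.0324) or quantile normalization (0.0321).

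MBD3, a member of the methyl-CpG binding domain family that binds methylated DNA poorly in mammals, fell with Entinostat and with the combination in both genotypes. MBD3 was at 18.7 and 22.0 RPKM with the combination in p53-/- cells, 19.4 and 23.4 with Entinostat and 34.2 and 28.7 with Nutlin-3A, against 37.6 and 41.3 with DMSO. Its levels in p53+/+ cells were 19.5 and 18.8 RPKM with the combination, 17.9 and 19.3 with Entinostat and 22.7 and 26.6 with Nutlin-3A, against 29.1 and 31.9 with DMSO. All 8 libraries with Entinostat lay between 17.9 and 23.4 RPKM, and those of the 2 genotypes overlapped there. MBD3 was 1.94-fold lower with the combination (log2 change -0.94 ± 0.13 SE, adjusted p = 0.000657) and 1.85-fold lower with Entinostat in p53-/- cells (-0.87 ± 0.13, adjusted p = 0.0011). In p53+/+ cells the combination lowered it 1.60-fold (-0.66 ± 0.13, adjusted p = 0.00127) and Entinostat 1.64-fold (-0.70 ± 0.13, adjusted p = 0.00298). These 4 calls held without any 1 library. With Nutlin-3A alone MBD3 lay below DMSO in both genotypes, by -0.33 in p53-/- cells (95% interval -0.60 to -0.05, adjusted p = 0.956) and by -0.30 in p53+/+ cells (adjusted p = 0.126, and 0.0461 with the block). Averaged over treatments MBD3 was 1.21-fold higher in p53-/- cells (0.25 ± 0.06, adjusted p = 0.00624). In p53+/+ cells MBD3 fell with the combination against Nutlin-3A alone (-0.36, adjusted p = 0.0454), a call lost without Nutlin-3A replicate 1 (0.0565) or 2 (0.257) or combination replicate 1 (0.126) or 2 (0.116). That call was also lost with no filter (0.0677), with quantile normalization (0.163) and without an intensity trend (0.0553).

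**Figure D4:**
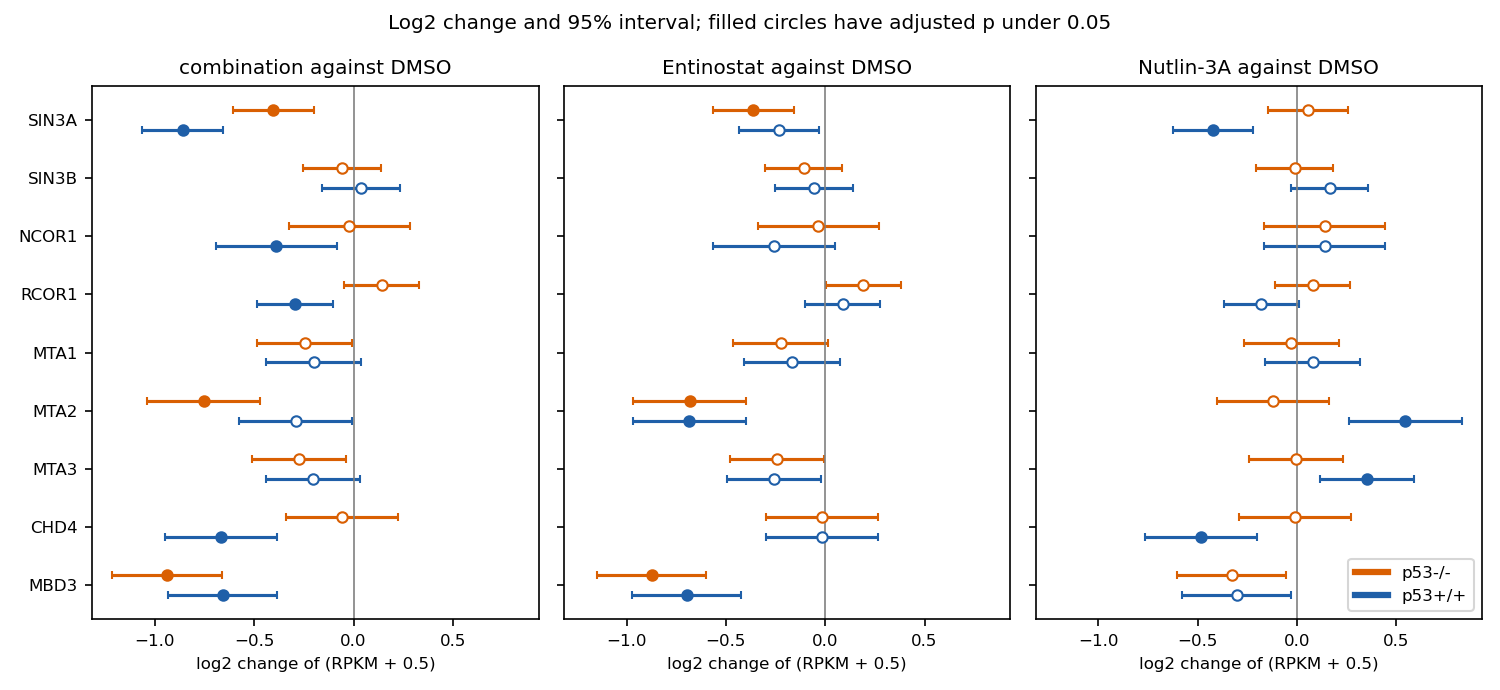
Log2 change of RPKM + 0.5 with 95% intervals for the 9 members under the combination, Entinostat and Nutlin-3A, each against DMSO, with p53-/- in orange above p53+/+ in blue. Filled circles have an adjusted p under 0.05. MBD3 fell with the combination and with Entinostat in both genotypes (-0.94 to -0.66), and CHD4 fell with Nutlin-3A (-0.48) and the combination (-0.67) in p53+/+ cells.

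Counted by drug against DMSO, members were called at rates from below to above that of all genes. These comparisons share their DMSO or drug libraries, so each is read against its own background. In p53-/- cells the combination called 3 of 9 members, all lower, where 31.8% of all genes were called, 17.1% higher and 14.7% lower. With the block it called 5 members and 48.8% of genes. In p53+/+ cells the combination called 5 members, all lower, where 50.0% of genes were called, 23.2% higher and 26.8% lower. With the block it called 7 members and 64.0% of genes. The unblocked count was 3 without DMSO replicate 1 or combination replicate 1, and 3 when only the compared groups were fitted. Entinostat called 3 members in p53-/- cells, all lower, against 28.2% of genes in either direction and 13.3% lower, and with the block 4 members and 45.5% of genes. In p53+/+ cells Entinostat called 2, both lower, against 27.5% of genes, 15.1% higher and 12.4% lower, and 1 without Entinostat replicate 1. With the block it called 4 members there and 44.6% of genes. In p53-/- cells Nutlin-3A called 0 members and 0 of all genes (0%) by limma, with 1 member and 440 genes at an unadjusted p under 0.05, and the block called 0 of either.

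With Nutlin-3A in p53+/+ cells 4 members were called, MTA2 and MTA3 higher and SIN3A and CHD4 lower, against 17.4% of genes, 7.89% higher and 9.50% lower. The median log2 change of the 9 members was 0.08, and that of all genes -0.02. SIN3A fell by 0.42 on the log2 scale (adjusted p = 0.00816), a call lost without DMSO replicate 1 (0.0527) or 2 (0.0548) or Nutlin-3A replicate 1 (0.0632). Without any 1 of these 3 libraries the number of members called was 0, without Nutlin-3A replicate 2 it was 3, and with quantile normalization it was 2. Against Nutlin-3A alone the combination in p53+/+ cells called 5 members, all lower, against 34.7% of genes, 16.6% higher and 18.1% lower. That count was 3 without Nutlin-3A replicate 1, 2 without combination replicate 1, and 2 when only the compared groups were fitted. Against Entinostat alone the combination called 3 (SIN3A, RCOR1 and CHD4), all lower, against 14.8% of genes, 5.16% higher and 9.69% lower. That count was 1 without combination replicate 1 or Entinostat replicate 2, and 0 when only the compared groups were fitted (adjusted p from 0.0843 to 0.175). Of the genes called there 34.7% were higher, and 46.8% with quantile normalization.

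Whether the response to Nutlin-3A differed between the genotypes was tested directly. With the 16 libraries in one fit, limma called 0 of 9 members and 6.78% of all genes, with 4 members and 2412 genes at an unadjusted p under 0.05. The largest differences, as the log2 change in p53-/- cells minus that in p53+/+ cells, were -0.67 ± 0.18 SE for MTA2 (adjusted p = 0.0517) and 0.48 ± 0.13 for SIN3A (adjusted p = 0.051). CHD4 gave 0.48 ± 0.18 (adjusted p = 0.165) and MTA3 -0.36 ± 0.15 (adjusted p = 0.219). With replicate numbers blocked 17.1% of all genes and 3 members were called, namely MTA2 (adjusted p = 0.00773), SIN3A (0.0186) and CHD4 (0.0273). The same 3 were called when only these 4 groups were fitted (0.0108, 0.0498 and 0.038), where 909 of all genes were called. The response to Entinostat was averaged over cells with and without Nutlin-3A, from all 16 libraries. In it the genotypes differed in 0 of 9 members and in 7 genes in all (0.0562%), with 0 members and 795 genes at an unadjusted p under 0.05, and the members' differences ran from -0.22 (MBD3) to 0.30 (NCOR1). With the block 0 members and 102 genes were called. The difference between genotypes in the response to the combination was not tested.

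Without drug no member differed between the genotypes by limma, where 4.69% of all genes did, and 2 members and 2050 genes had an unadjusted p under 0.05. Those members were SIN3B, 1.23-fold lower in p53-/- cells (log2 change -0.29, adjusted p = 0.102, and 0.0319 with the block), and MBD3, 1.29-fold higher (0.37, adjusted p = 0.144, and 0.0394 with the block). Averaged over the 4 treatments 4 members were called, SIN3B and MTA2 lower and RCOR1 and MBD3 higher in p53-/- cells, against 51.6% of all genes, 26.3% higher and 25.3% lower. These 4 calls held without any 1 library. For MTA2 the average of -0.26 (adjusted p = 0.00514) includes the drug groups, and with DMSO alone MTA2 gave 0.02 (95% interval -0.27 to 0.30, and -0.0025 with quantile normalization). RCOR1 with DMSO alone gave 0.11 (95% interval -0.08 to 0.30).

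Another 42 genes, in 6 lists, were all in the table and all tested. The lists were further subunits of the SIN3, NuRD, NCOR/SMRT and CoREST complexes, the MiDAC complex and the class I HDACs. With Entinostat, averaged over the 4 pairs, 11 rose and 11 fell, where 31.7% of all genes were called higher and 30.1% lower. The median log2 change was -0.01, close to that of all genes (0.01). In the SIN3 list 2 of 14 rose and 6 fell. FAM60A, a subunit of the SIN3 complex (-0.67, adjusted p = 2.74e-05), was at a mean of 28.8 RPKM with and 46.0 RPKM without Entinostat. BRMS1, a metastasis suppressor (-0.53, adjusted p = 9.4e-06), and ARID4B (-0.27, adjusted p = 0.000516) also fell, and SAP30 rose (0.25, adjusted p = 0.0058). In the NuRD list 2 of 8 rose and 1 fell, with GATAD2B, a zinc finger subunit, at 0.25 (adjusted p = 0.00125). CHD5 rose by 0.21 (adjusted p = 0.0105, and 0.652 with quantile normalization), and CDK2AP1 gave -0.27 (adjusted p = 0.0303), a call lost without p53-/- DMSO 1 or 2, Nutlin-3A 2, Entinostat 1 or combination 1, or p53+/+ DMSO 1, Nutlin-3A 1 or 2, or Entinostat 1 (0.0504 to 0.076), with no filter (0.0612) and with quantile normalization (0.191). In the NCOR/SMRT list GPS2 rose (0.27, adjusted p = 0.00115) and TBL1X fell (-0.22, adjusted p = 0.00448) among 4 genes. In the CoREST list 3 of 9 rose and 2 fell, with RCOR2, a paralogue of RCOR1, at 0.36 (adjusted p = 0.000765), PHF21A, which binds unmethylated histone H3, at 0.30 (adjusted p = 0.00153) and ZMYM3 at -0.27 (adjusted p = 0.00115). In the MiDAC list 1 of 3 rose, TRERF1 (0.32, adjusted p = 0.00216), a call lost with quantile normalization (0.137). The calls of FAM60A, BRMS1, ARID4B, SAP30, GATAD2B, GPS2, TBL1X, RCOR2, PHF21A and ZMYM3 held in every alternative and without any 1 library.

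With Nutlin-3A in p53+/+ cells 1 of the 42 rose and 10 fell, against 7.89% of all genes higher and 9.50% lower, with a median of -0.22 against -0.02 for all genes. Fewer fell without DMSO replicate 2. With quantile normalization 6 fell, against 968 of all genes (1184 as first fitted). With the block 4 rose and 16 fell, against 31.5% of all genes in either direction. BRMS1L, a paralogue of BRMS1, rose to a mean of 7.88 RPKM with Nutlin-3A, against 3.72 RPKM with DMSO (log2 change 0.99, adjusted p = 0.000355). SAP30, which stabilises the SIN3 complex, was at 8.06 against 15.7 RPKM (-0.93, adjusted p = 0.000454). ING2 (-0.80, adjusted p = 0.00152) and ING1 (-0.76, adjusted p = 0.00368), readers of methylated histone H3, and ELMSAN1, the MiDAC scaffold (-0.58, adjusted p = 0.00245), fell as well. These 5 calls held without any 1 library. In p53-/- cells Nutlin-3A called 0 of the 42 and 0 of all genes by limma. At an unadjusted p under 0.05 there were 0 of the 42 and 440 of all genes. The response to Nutlin-3A differed between genotypes for 4 of the 42, against 6.78% of all genes. They were BRMS1L (-0.84, adjusted p = 0.0206), ING2 (0.80, adjusted p = 0.0271), SAP30 (0.75, adjusted p = 0.0316) and ELMSAN1 (0.59, adjusted p = 0.034). ELMSAN1 lost this call without any 1 of the 8 libraries concerned (adjusted p 0.0679 to 0.118). ING2 lost it without any but p53-/- DMSO replicate 1 (0.06 to 0.105), and SAP30 without any but p53+/+ Nutlin-3A replicate 2 and p53-/- Nutlin-3A replicate 1 (0.0628 to 0.135). BRMS1L lost it without either p53-/- DMSO library, the first p53-/- or p53+/+ Nutlin-3A library, or the other p53+/+ DMSO library (replicate 2; 0.0624 to 0.0995). With no filter on low values ING2 (0.0528) and SAP30 (0.0594) lost it too. With the block 11 of the 42 were called, against 17.1% of all genes. With the combination in p53+/+ cells 4 rose and 16 fell, against 23.2% of all genes higher and 26.8% lower, with a median of -0.27 against -0.03 for all genes. Among them were BRMS1L (0.84), ING2 (-0.75) and TBL1X (-0.60). Fewer than these 20 were called without DMSO replicate 2 or combination replicate 1. With the compared groups only the 20 calls became 13, where all genes called were 4655 (6236 as first fitted). With the block they became 28, where 64.0% of all genes were called.

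The class I deacetylases moved less than MTA2 or MBD3 with Entinostat. HDAC3 rose (0.25, adjusted p = 0.00676), and HDAC8 gave 0.05 (adjusted p = 0.436). HDAC1 gave 0.15 (adjusted p = 0.0444), a call lost with median of ratios scaling (0.138), with no filter (0.0661) and with no intensity trend (0.0546). That call was also lost without any 1 of 8 libraries, namely replicate 1 of Entinostat or the combination and replicate 2 of DMSO or Nutlin-3A, in either genotype. HDAC2 gave -0.13 (adjusted p = 0.0223), a call lost with quantile normalization (0.42) and without replicate 1 of the combination, Entinostat or DMSO in p53-/- cells, or 1 Nutlin-3A library of each genotype (p53-/- replicate 2, p53+/+ replicate 1; 0.0515 to 0.0579). HDAC2 was at a mean of 15.2 RPKM in p53-/- cells with DMSO, against 29.9 RPKM in p53+/+ cells with DMSO (-0.96, adjusted p = 4.57e-05). Among the other 42 genes CHD5, a relative of CHD4, had the largest positive genotype difference averaged over treatments, with 3.62 RPKM in p53-/- and 2.05 RPKM in p53+/+ cells (0.70, adjusted p = 2.71e-06).

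For each member the genes most alike in pattern were sought among 11504 genes, by Pearson's r over the 8 group means of log2(RPKM + 0.5). With 8 points and so many genes high values of r are common, and the groups share libraries' depth and treatment. SIN3A was most like SDHB (0.99) and TTF1 (0.99), SIN3B most like LAMA5 and KLK8 (0.99 each), NCOR1 most like TM2D1 and CPNE8 (0.98 each) and RCOR1 most like CDKN2AIPNL (1.00) and ZNF107 (0.99). MTA1 was most like CTTN (1.00) and C1orf43 (0.99), MTA2 most like ZNF692 and ESRP2 (1.00 each), and MTA3 most like APTX (0.99) and MAP4K4 (0.98). CHD4 was most like THRAP3 (0.99) and PMS2P1 (0.98), and MBD3 most like DOHH (1.00) and PUF60 (0.99). Among the members themselves MTA1 and MTA2 were the most alike (0.91), followed by MTA1 and MTA3 (0.87), while SIN3B and RCOR1 ran opposite to each other (-0.90).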

How the data were processed

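Polyadenylated RNA of 16 libraries was sequenced with a stranded kit, per the labels. The authors deposited RPKM for 20612 genes. The submitters' processing notes name Bowtie2, Partek and hg19. Versions, read filters, gene models and strand settings: not given in the sources used here. All table columns matched the labels. A check of the genotype labels is not reported here.

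RPKM were taken as log2(RPKM + 0.5), a scale that understates changes of low genes, without further scaling. Genes with a mean of at least 0.5 RPKM were tested (12466, or 60.5%). limma 3.58.1 in R 4.3.3 fitted 8 group means to the 16 libraries (8 residual and 4.09 prior degrees of freedom, intensity trend) for 13 comparisons. p-values were adjusted across the 12466 genes (Benjamini-Hochberg), and an adjusted p under 0.05 made a call. Folds are ratios of mean RPKM. The fit was tested on simulated data with independent noise at its own estimates of spread. That noise lacks the correlated replicate differences given below, so the test does not bear on them. Without 1 library a group has 1 sample, which was assumed to vary like the other groups.

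The sample titles mark replicate 1 as AM1 and replicate 2 as AM2 in all 8 groups. Differences between replicates 1 and 2 correlated across genes in all 28 pairs of groups (r from 0.27 to 0.78, median 0.43). Replicate numbers were therefore taken as pairs in a further fit, with the replicate number as a block. That fit is given for members where it changed a call or moved a count by over 1.5 times. For the other subunits it is given as counts. All other p-values are from fits without the block.

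The members, gene lists and tests were chosen with earlier results of these data known. All members were followed, with at most 4 called genes per other list and comparison, those with the largest change, and the 2 genes most alike in pattern per member. SINHCAF and MIDEAS are listed in the table as FAM60A and ELMSAN1. Promoters are RefSeq windows of GRCh38.p14, a build other than that of the alignment, used for sequence only.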

Additional observations from a re-analysis of the deposited data

How the results depend on the processing

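Each p-value rests on 2 libraries a group, and RPKM carry no read counts, so a change that was not called is not shown to be absent. The comparisons of members that were called in any setting, or whose value is given above, had 561 values under other settings: 507 kept direction and side of the threshold, 31 passed it, 18 no longer passed it and 5 changed sign. Of 452 with 1 library left out 409 were the same, 35 lost the call, 3 gained it and 5 changed sign. None of the values that changed sign was called as first fitted. With quantile normalization they were MTA1 with the combination in p53+/+ cells (0.0161), MTA2 between genotypes with DMSO (-0.0025), and CHD4 with against without Entinostat (0.0284) and with Entinostat in p53-/- (0.103) and p53+/+ cells (0.0804). With 1 library left out CHD4 changed sign with Entinostat in p53-/- cells without Entinostat replicate 1 (0.0915) or DMSO replicate 2 (0.0387), the range being -0.127 to 0.0915, and in p53+/+ cells without Entinostat replicate 1 (0.043, range -0.0758 to 0.043). It did so for the combination against Nutlin-3A in p53+/+ cells without combination replicate 1 (0.0088, and -0.375 without combination replicate 2), and MTA2 between genotypes with DMSO without p53-/- DMSO replicate 2 (-0.0216, range -0.0216 to 0.0585). Other subunits were put through the same settings, and this was chosen after seeing the data. A pseudocount of 0.1 changed no member's call. For the Nutlin-3A response difference 0 members and 845 genes in all were called as first fitted. A pseudocount of 1 called 1 member (846 genes in all), and a mean of at least 2 RPKM 2 (788). Median of ratios scaling called 1 member (821) and quantile normalization 1 (774). The replicate block called 3 members (2126) and the compared groups only 3 (909). The all genes count for the Entinostat response difference was 12 with a pseudocount of 1, 41 with no filter, 2 with a mean of at least 2 RPKM, 14 with median of ratios scaling, 0 with quantile normalization, 102 with the block and 16 with no intensity trend, against 7, and 0 to 31 with 1 library left out. With no filter Nutlin-3A in p53-/- cells called 1 gene, and with quantile normalization Nutlin-3A in p53+/+ cells called 2 members and 1904 genes in all. With the replicate block, which rests on pairs of replicate numbers, all genes called were 3931 for Nutlin-3A (2167 unblocked) and 5565 for Entinostat (3434) in p53+/+ cells, 5677 for Entinostat (3520) and 6088 for the combination (3965) in p53-/- cells, 6529 for the combination against Nutlin-3A (4323), 3896 against Entinostat (1851), 1634 for the genotypes with DMSO (585) and 2126 for the Nutlin-3A response difference (845). Members called with the block were 4 for Entinostat in p53+/+ cells, 5 for the combination in p53-/- cells and 2 between the genotypes with DMSO. With the compared groups only, the members called were 3 for the combination in p53+/+ cells (4655 of all genes), 2 against Nutlin-3A (2305) and 0 against Entinostat (233). In that setting SIN3A lost its Entinostat call in p53-/- cells (adjusted p = 0.056). The cause was not tested, except that fewer libraries enter that fit. That setting could not be run for the 3 comparisons that use all 8 groups. With 1 library left out, all genes called ran from 1040 (without Nutlin-3A replicate 1) to 1452 for Nutlin-3A, 779 (without Entinostat replicate 1) to 2797 for Entinostat and 4144 (without combination replicate 1) to 6306 for the combination in p53+/+ cells. They ran from 838 (without Entinostat replicate 1) to 2988 for Entinostat and 1101 (without combination replicate 1) to 3632 for the combination in p53-/- cells, 1698 to 4818 for the combination against Nutlin-3A and 729 to 2425 against Entinostat (lowest without combination replicate 1), 239 to 341 between genotypes with DMSO and 424 to 696 for the Nutlin-3A response difference. Members called ran from 0 to 3 for Nutlin-3A, 1 to 2 for Entinostat and 3 to 6 for the combination in p53+/+ cells, 2 to 3 for Entinostat and 2 to 4 for the combination in p53-/- cells, 2 to 5 for the combination against Nutlin-3A and 1 to 3 against Entinostat.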
